A study of Mus musculus with 12 samples.

Results

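Of the 30142 genes with at least 1 array row of their own, 122 (0.405%) lay at the highest value of the data set, 19.9315 on the log2 scale, on all 12 arrays. They were chosen by that value: for each gene the row with the highest mean was taken, and a gene was kept if that row equalled the maximum on every array. In all 139 genes (0.461%) did so, and 17 were set aside by symbol, 2 of the Reg family and 15 of ribosomal proteins, of which 13 were pseudogenes. Of the 122 genes, 35 (28.7%) belonged to families of digestive enzymes and other proteins of pancreatic juice or of the secretory granule, of which RefSeq classes 1 as a pseudogene. A further 52 (42.6%) were non-coding RNAs of the nuclear genome, 3 were mitochondrial transcripts and 3 carried the symbols of other proteins. The rest were 28 other pseudogenes and 1 predicted gene without a class. Symbols are those of the array annotation, updated through RefSeq where the gene identifier matched, which changed 1 of the 122. Of the 122 genes, 36 were matched to RefSeq by symbol only.

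The samples were whole mouse pancreas taken at 6 months, 6 labelled normal and 6 labelled experimental. The normal pancreas carried Pdx1/Cre, and the experimental pancreas carried Pdx1/Cre together with Traffic-HuR, so that Cre was present in both groups. HuR is the RNA-binding protein encoded by Elavl1, and the series asks what raised HuR does in the pancreas. Pdx1 is a transcription factor of the developing pancreas, and its promoter is widely used to express Cre in the cells that give rise to exocrine and endocrine pancreas. The labels do not say whether the 12 arrays come from separate mice, so p-values measure the spread between arrays only. RNA was labelled as biotinylated cDNA and hybridised to Affymetrix arrays, and the values are log2 intensities from robust multi-array averaging (RMA).

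Most of the pancreas by mass is acinar tissue, whose cells make digestive enzymes in very large amounts, mostly as inactive precursors (zymogens), and store them in zymogen granules until a meal. Trypsinogen is cut to trypsin in the gut and trypsin then cuts the other zymogens, while inhibitors in the same granules hold back trypsin that forms too early. Alongside these messages every cell carries abundant structural RNAs, such as the 5S and 28S RNAs of the ribosome and the 7SL RNA of the signal recognition particle, which brings secretory proteins to the endoplasmic reticulum.

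Trypsinogens were the largest enzyme group at the ceiling, and the sequence before their start sites shows how closely some are related. The 80 bases before the annotated start of 7 of them are printed here, from RefSeq on mouse build GRCm38.p6, 5′ to 3′ on the strand of the gene, with 3 other digestive genes for comparison. Capitals mark TATAAA, the usual TATA box, within 40 bases of the start, and, where present, 2 hexamers searched on both strands. The first is the E-box CACCTG, which reads as CAGGTG from the opposite strand, and the second is TGGGAA, which from the opposite strand reads as TTCCCA. Prss1 lies at chr6:41458850-41458929 (+), Try4 at chr6:41302192-41302271 (+), Gm5771 at chr6:41392276-41392355 (+), Prss3 at chr6:41377614-41377693 (-), Gm10334 at chr6:41446098-41446177 (-), Prss2 at chr6:41521696-41521775 (+) and 2210010C04Rik at chr6:41035510-41035589 (-). Cela1 lies at chr15:100687921-100688000 (-), Amy2b at chr3:113156728-113156807 (-) and Cela3b at chr4:137430521-137430600 (-).
Prss1: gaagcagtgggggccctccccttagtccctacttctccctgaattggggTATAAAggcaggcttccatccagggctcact
Try4: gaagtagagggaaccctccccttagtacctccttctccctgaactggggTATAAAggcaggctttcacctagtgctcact
Gm5771: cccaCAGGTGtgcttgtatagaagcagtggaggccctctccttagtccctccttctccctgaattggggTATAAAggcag
Prss3: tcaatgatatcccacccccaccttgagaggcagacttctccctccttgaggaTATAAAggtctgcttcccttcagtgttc
Gm10334: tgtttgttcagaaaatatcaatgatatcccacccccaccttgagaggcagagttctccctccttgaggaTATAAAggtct
Prss2: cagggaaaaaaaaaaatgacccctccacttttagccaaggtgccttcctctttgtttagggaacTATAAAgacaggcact
2210010C04Rik: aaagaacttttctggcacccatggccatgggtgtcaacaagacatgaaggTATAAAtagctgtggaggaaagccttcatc
Cela1: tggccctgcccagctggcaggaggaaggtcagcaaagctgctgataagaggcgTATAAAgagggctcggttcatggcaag
Amy2b: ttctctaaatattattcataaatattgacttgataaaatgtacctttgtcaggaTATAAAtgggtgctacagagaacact
Cela3b: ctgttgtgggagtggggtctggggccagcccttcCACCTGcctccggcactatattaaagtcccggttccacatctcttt

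The trypsinogen sequences fell into close relatives and distant ones. Over 76 bases lined up on TATAAA, Gm5771 and Prss1 shared 96.1% of positions, Prss1 and Try4 86.8%, and Gm5771 and Try4 85.5%. Prss3 and Gm10334, read from the opposite strand of the chromosome, shared 97.4% of positions with each other. Prss2 shared no more than 42.1% with any of the others in this window, and 2210010C04Rik no more than 39.5%. The first base of TATAAA stood 31 bases before the start in Prss1 and Try4, 30 in 2210010C04Rik and 28 in Prss3. It stood at 16 bases in Prss2 and at 11 in Gm5771 and Gm10334, where the annotated start lies nearer to it.

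RefSeq's table of promoters held 30 of the 122 genes, among them 28 of the 35 digestive and juice genes. TATAAA was found within 40 bases of the start in all 7 trypsinogens listed and in Cela1, Amy2b and Gp2, which is 10 of the 28 (35.7%), against 2.31% of all 32851 promoters of the table. Without the trypsinogens it was 3 of 21 (14.3%). The other-strand spelling, TTTATA, was in 0 of the 28 and in 0.907% of all promoters. The E-box, in either spelling, was present within 250 bases before the start in 19 of the 28 (67.9%), against 17.2% of all promoters. Without the trypsinogens it was in 12 of 21 (57.1%). The second hexamer, also in either spelling, was present in 16 of the 28 (57.1%), against 21.6%. These are counts of letters, each spelling as read for TATAAA and TTTATA and over both strands for the 2 hexamers. Overlap between motifs was not removed. Some of the trypsinogens share much of their sequence, so the 28 are not all independent of each other. Cel and Cela3a each had the E-box at 4 places.

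The scale bounds what these genes can show. The ceiling of 19.9315 corresponds to 999952 in linear units, the next highest value of any row that is not an array control was 19.9297, and the median row had a mean of 4.516. Only 70 genes had a mean between 19 and the ceiling, against the 139 at the ceiling itself. A gene at the ceiling on every array has the same value in both groups, so the difference between HuR and control pancreas is 0 for all 122 genes by the way they were chosen. That 0 sets no limit on a change in their transcripts.

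**Figure D1:**
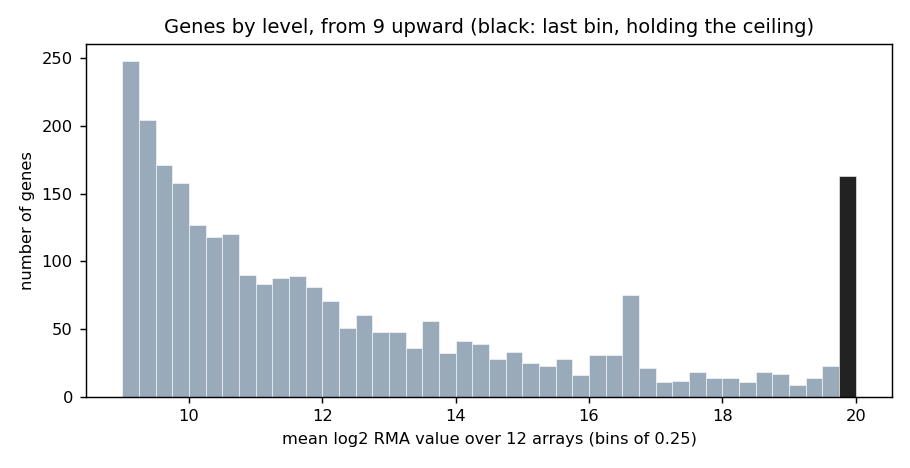
Number of genes (vertical axis) by mean log2 RMA value over the 12 arrays (horizontal axis), in bins of 0.25 from 9 upward. The black bar is the last bin, with 163 genes, 139 of which lie at the ceiling on all 12 arrays. The bin before it holds 23 genes, and a lower peak of 75 genes stands at 16.5 to 16.75.

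The lists of digestive enzymes and juice proteins had 50 entries, of which 42 had a row of their own. Of those 42, 34 lay at the ceiling on all 12 arrays and 8 below it. These lists were drawn up with the pancreas in mind and with earlier results of these data known, so this count is a description. The serine proteases led. The 9 trypsinogens were Prss1, Prss2, Prss3, Try4, Try5, 2210010C04Rik, Gm5771, Gm10334 and Gm5409, the last classed by RefSeq as a pseudogene. All 9 lie on chromosome 6, and 5 of them are direct neighbours of another ceiling gene in RefSeq's gene order. The chymotrypsin and elastase group had 6 members, Ctrb1, Ctrl, Cela1, Cela2a, Cela3a and Cela3b, which cut proteins after large or small side chains, and Cela3a and Cela3b are neighbours in the genome.

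Enzymes for other foodstuffs were present in every class. Cpa1 and Cpb1 encode carboxypeptidases, which trim amino acids from the ends of peptides. Of the fat-digesting group, Cel encodes bile salt-activated lipase, Clps the colipase that anchors pancreatic lipase to fat droplets, Pla2g1b the phospholipase of pancreatic juice, and Pnliprp1 and Pnliprp2, which are neighbours, the lipase-related proteins. Pnlip, the gene of pancreatic lipase itself, had no row of its own, so its absence here says nothing about its level. The amylases Amy2a1 and Amy2b, which break down starch, and the ribonuclease Rnase1 completed the enzymes.

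The other 10 secretory genes encode proteins that accompany the enzymes. Gp2 is the main glycoprotein of the zymogen granule membrane, Zg16 and Sycn (syncollin) are granule proteins, and Cuzd1 is found with them in acinar granules. Spink1 is the trypsin inhibitor of pancreatic juice, and Serpini2 is a serpin, a member of a family of protease inhibitors. Klk1 and Klk1b5 encode tissue kallikreins, Tff2 a trefoil peptide, and Dmbt1 a scavenger receptor protein of mucosal secretions. The 35 secretory genes lie on 12 chromosomes, with 9 of them next to another ceiling gene.

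**Figure D2:**
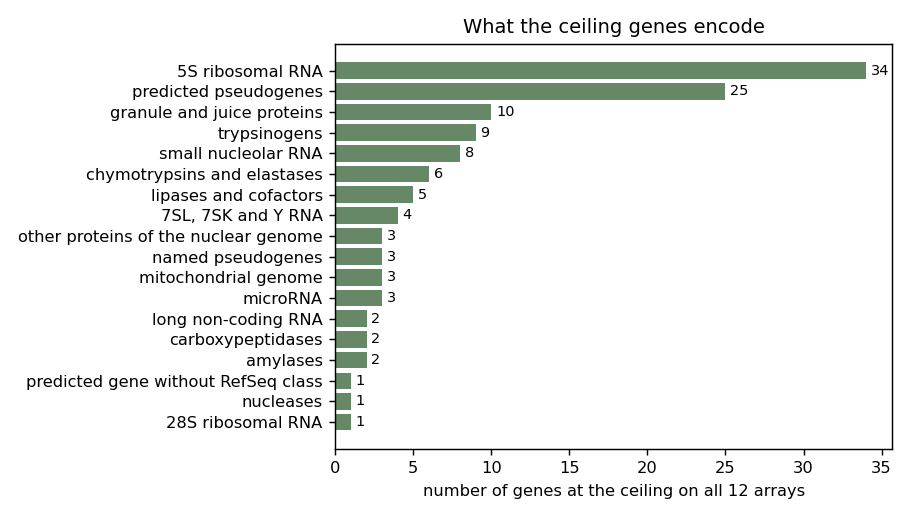
Number of ceiling genes (horizontal axis) in each class of product (vertical axis), 122 genes in all. The 5S ribosomal RNAs (34) and the predicted pseudogenes (25) are the largest classes, followed by granule and juice proteins (10) and trypsinogens (9).

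Close relatives of several members, and other genes of the same lists, lay below the ceiling. Of the 10 trypsinogen genes measured, 1810009J06Rik was the only 1 not at the ceiling. It measured from 6.63 to 10.15 in control pancreas with a mean of 8.04 ± 1.27 (SD, n = 6) and from 7.65 to 17.63 in HuR pancreas with a mean of 12.47 ± 3.42 (SD, n = 6). Its HuR values lay above the control median on 5 of 6 arrays, with overlap between the groups, and the difference of 4.43 ± 1.37 (SE) had an unadjusted limma p of 0.00741 and an adjusted p of 0.925. In whole tissue, more cells of a type and more RNA per cell cannot be told apart. Ctrc, chymotrypsin C, which degrades trypsinogen, had means of 14.32 ± 0.444 (SD) in control and 13.78 ± 0.543 (SD) in HuR pancreas, with an adjusted limma p of 0.925. Amy1, the salivary-type amylase, measured 16.4068 on most arrays and had an overall mean of 16.34. Clu (clusterin), a secreted chaperone, had a control mean of 14.96 and a HuR mean of 15.03. Dnase1 (3.90), Itln1 (3.98) and Fcgbp (4.17) were below the median row.

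The kallikrein family showed the same split. Of 24 kallikrein genes measured, Klk1 and Klk1b5 were at the ceiling and the rest had a median of 5.077. Klk1b9 stood highest among these with 15.9931 on every array, and Klk1b1 measured 12.1653 on every array. Klk1b11 varied from 12.68 to 15.18. A shared row value on all arrays is thus found below the ceiling too.

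Genes of the machinery that serves secretion did not reach the ceiling on all arrays. None of 37 measured genes for entry into and folding in the endoplasmic reticulum was a member. Pdia2, the pancreas-type protein disulfide isomerase, came nearest, with the ceiling on 11 arrays and 19.90 in control replicate 2. Next came P4hb, which encodes protein disulfide isomerase, with a mean of 18.74, and Tram1, a component of the protein-conducting channel, with 18.71. Tmed6, a protein of early secretory vesicles, followed with 18.62. The median of the 37 genes was 12.76. Values of different rows are not levels per length and do not rank the genes by transcript number.

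Among housekeeping messages only 3 nuclear genes were members. Eef1a1 encodes the elongation factor that brings aminoacyl-tRNA to the ribosome, and it was the only member of 17 translation factors measured, with Eef2 next at 18.35. Hspa8, the name of a constitutive chaperone of the Hsp70 family, was the only member of 14 housekeeping and cytoskeletal genes measured. Its ceiling rows do not lie at the gene: by their names they are on chromosomes 1, 6 and 14, while RefSeq places Hspa8 on chromosome 9. Row names gave the chromosome of the gene for 99.7% of 30109 rows compared, and Hspa8 was the only 1 of 110 ceiling genes that could be compared without a ceiling row on its own chromosome. This compares chromosomes only and does not show that a row lies at its gene. The third, Serinc3, encodes a membrane protein of the serine incorporator family. No islet hormone gene was a member. Iapp (amylin) had a mean of 15.63, Gcg (glucagon) 15.59 and Ins2 (insulin) 13.29, and Ins2 read 13.2813 on most arrays.

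The mitochondrial genome supplied ND3 and ND6, subunits of respiratory complex I, and mt-Rnr1, the RNA of the small mitochondrial ribosome subunit. Of 6 mitochondrial genes with a row of their own, the other 3 lay below. ND2 had a mean of 16.92, COX1 read 18.3659 on every array, and COX2 read 11.3713 on every array. COX1 and COX2 are encoded by the same small genome as the members.

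**Figure D3:**
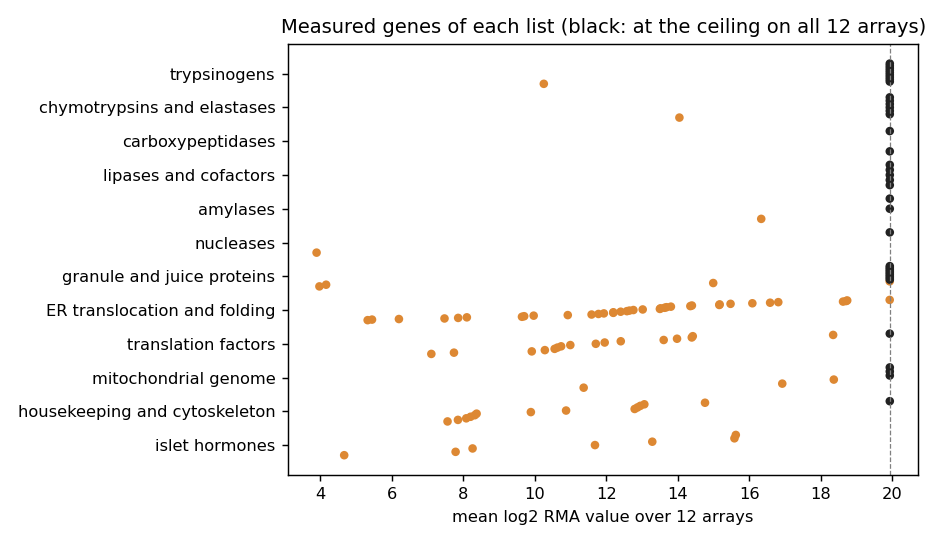
Mean log2 RMA value over 12 arrays (horizontal axis) of each measured gene, 1 point a gene, in 12 gene lists (vertical axis). Black points are at the ceiling on all 12 arrays (dashed line), orange points are not. Of the digestive and juice lists 34 of 42 genes are black, and of the endoplasmic reticulum list 0 of 37.

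Non-coding RNAs formed the largest class. The 34 genes for 5S ribosomal RNA were named n-R5s or Rn5s in 28 cases and Gm in 6. RefSeq placed all but 1 of the 34 on chromosome 8 and the other, n-R5s2, on chromosome X, and 30 of them next to another ceiling gene. Not all annotated copies were at the ceiling. Of 70 genes named n-R5s or Rn5s, 28 were at the ceiling on all arrays, 4 on some and 38 on none, and those 38 ranged from 5.152 to 19.74 with a median of 13.71. As copies of a repeated gene, they can share probes or reads of the same RNA, and which copy gives the signal cannot be told apart here.

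The other structural RNAs were Rn28s1, for the RNA of the large ribosome subunit, Rn7s1 and Rn7s2, for the 7SL RNA, Rn7sk, an RNA that holds back transcription elongation, and Rny3, a Y RNA. Small nucleolar RNAs of the C/D type, which guide methylation of ribosomal RNA, gave Snord42a, Snord49b, Snord58b and Snord69, 4 of 44 genes named Snord (9.09%). A further 4 members named Gm, among them Gm23301 and Gm26202, are small nucleolar RNAs by RefSeq's class for the symbol, and Gm24105 and Gm25640 are long non-coding RNAs. None of 18 Snora genes, which guide pseudouridylation, was a member. Of 634 microRNA genes 3 (0.473%) were members, near the 0.405% of all genes. These carried the names Mir1954, Mir6240 and mmu-mir-6240, the last 2 being spellings of 1 name. The row of Mir6240 is not mapped to a chromosome by its name. The rows do not separate mature from precursor.

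The mature microRNAs of the members and of 3 microRNA genes at the ceiling on 11 arrays are printed from RefSeq (GRCm38.p6), with the seed, bases 2 to 8, in capitals. They are shown to make plain whether a shared seed links the names. They are the sequences of the named genes, which the rows need not read: the row of Mir3470b is on chromosome 7 and that of Mir3473a on chromosome 15 by name, while RefSeq places these genes on chromosomes 16 and X.
mmu-miR-1954: aCUGCAGAgugagacccuguu
mmu-miR-6240: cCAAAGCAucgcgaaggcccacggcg
mmu-miR-703: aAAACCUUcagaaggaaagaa
mmu-miR-3470b: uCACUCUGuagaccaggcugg
mmu-miR-3473a: uGGAGAGAuggcucagca

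No pair of the 5 shared a seed. The seeds of mmu-miR-1954, mmu-miR-6240 and mmu-miR-3473a each occur in 2 mature sequences of the table, those of mmu-miR-703 and mmu-miR-3470b in 1.

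Of the 28 pseudogenes outside the digestive families, 25 were predicted genes classed by RefSeq through their symbol, such as Gm10155, Gm13370 and Gm9493, spread over 14 chromosomes. The other 3 were Tpt1-ps3, Tpt1-ps6 and Gm10045. Gm10186 had no class. Tpt1 encodes translationally controlled tumour protein, an abundant cytoplasmic protein. Its own row read 7.74457 on every array, while Tpt1-ps3 and Tpt1-ps6 were at the ceiling, Tpt1-ps5 had a mean of 19.67, and Tpt1-ps2 and Tpt1-ps1 had means of 6.07 and 5.61. Rows of a gene and its processed copies thus spanned nearly the whole scale, and which of them the RNA came from was not tested.

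A second row can show a member below the ceiling, and few members had one. In all 90 of the 122 genes had a single row. The other 32 genes had 34 further rows with 1 symbol, and 32 of these rows were at the ceiling on all 12 arrays, among them 3 further rows that carry the symbol Hspa8 on chromosomes other than its own. The 2 that were not belong to Mir1954 and Gm11703.

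Both Mir1954 rows are on chromosome 2 by name, as is the gene, and which of them lies at it was not checked. The other Mir1954 row, below the ceiling, was measured in full. Control replicates 1 to 6 read 11.02, 11.40, 11.25, 10.88, 11.09 and 11.34. HuR replicates 1 to 6 read 10.995, 11.45, 11.14, 11.10, 11.16 and 11.28. The groups overlapped over nearly their whole range, with replicate 2 the highest in each. The means were 11.16 ± 0.198 (SD, n = 6) in control and 11.19 ± 0.159 (SD, n = 6) in HuR pancreas. The difference of 0.02 ± 0.0993 (SE; 95% interval -0.194 to 0.24) had an adjusted limma p of 0.995. Its sign changed when control replicate 1, control replicate 4 or HuR replicate 2 was left out, and under a new quantile normalization.

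The other Gm11703 row carries another gene identifier in the annotation than the ceiling row, so it may be another locus of that name. It read 15.0178 on 9 of 12 arrays. Control replicates 2 and 4 were lower, at 15.0068 and 14.9923, and HuR replicate 4 was higher, at 15.0299. The difference between HuR and control was 0.01 ± 0.0273 (SE), with an adjusted limma p of 0.993 and 95% limits of -0.0516 and 0.0678. That SE is near the 0.027 given to rows with no spread at all, since limma pools variance over rows. The row's own SDs were 0.0105 in control and 0.00494 in HuR pancreas. The p and the limits thus do not measure the spread of this row.

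Of these 2 rows, limma called 0 at an adjusted p of 0.05, and 0 had an unadjusted p under 0.05. Over all 65956 rows 0 (0%) were called at the adjusted threshold. At the unadjusted threshold 3506 (5.32%) passed, with 2.56% higher and 2.76% lower in HuR pancreas, and in 0.249% the groups did not overlap.

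Rows whose annotation joins a member with other genes added 14 rows, of which 11 were at the ceiling. They include 4 rows over the Amy2a cluster with Amy2a1, 6 rows pairing 5S genes, and 1 of Try10 with Gm5409. The 3 below the ceiling were chosen after their values were seen. Hspa8 shares 1 of them with the pseudogene Gm15459. In control pancreas that row read 18.43, 18.55, 18.54, 17.20, 18.19 and 18.59, and in HuR pancreas 18.40, 19.06, 19.39, 18.49, 17.997 and 18.45. Control replicate 4 was the lowest array and HuR replicate 3 the highest, with overlap between groups, and the difference of 0.38 ± 0.277 (SE; 95% interval -0.225 to 0.986) had an adjusted limma p of 0.94.

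Hspa8 shares the next row with Snord14c, Snord14d and Snord14e, small nucleolar RNAs that lie in its introns, and this row is on chromosome 9, where the gene lies. It read 13.6816 on control replicates 1, 2, 3 and 6 and on HuR replicates 1 and 4. Control replicate 4 was the lowest at 13.25 and HuR replicate 3 the highest at 13.95, as in the row shared with Gm15459. The difference was 0.07 ± 0.111 (SE; 95% interval -0.168 to 0.314), with an adjusted limma p of 0.98. The third row joins Rpl21 with 4 members, Gm10045, Gm11703, Gm13653 and Gm15682, and read 7.31671 on every array. These 4 genes stood at the ceiling in their own rows.

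Genes just short of membership show which arrays limit the rule. Besides the 139 genes, 19 were at the ceiling on some arrays only, with 10 on 11 arrays, 5 on 10, 1 on 9 and 3 on 1. These values are those the rule used and most are capped, so they are described without a test. Among the 10 were Pdia2, Snord16a and Rpl12, a protein of the large ribosome subunit, whose row is on chromosome 10 by name and not on chromosome 2 with the gene. In control replicate 2 these 3 read 19.90, 19.8324 and 19.8903, and Gm8172, Gm11425, Gm12191 and Gm16409 read 19.9158, 19.9202, 19.8792 and 19.7597. All 7 were at the ceiling on the other 11 arrays.

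The microRNA genes left the ceiling elsewhere. Mir703 read 19.9286 in HuR replicate 2 and Mir3470b 19.8412 in HuR replicate 3. Mir3473a read 14.3209 in control replicate 4 and was at the ceiling on the other 11 arrays. The 5S genes n-R5s106, n-R5s118 and n-R5s130 and the predicted gene Gm24312 had identical values, 19.7447 in control replicate 2 and 19.8431 in HuR replicate 4. Gm4294 fell short in control replicates 1 and 2. The 5S gene n-R5s115 read 18.3149 in control replicate 2, 19.2137 in HuR replicate 2 and 18.7694 in HuR replicate 4.

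**Figure D4:**
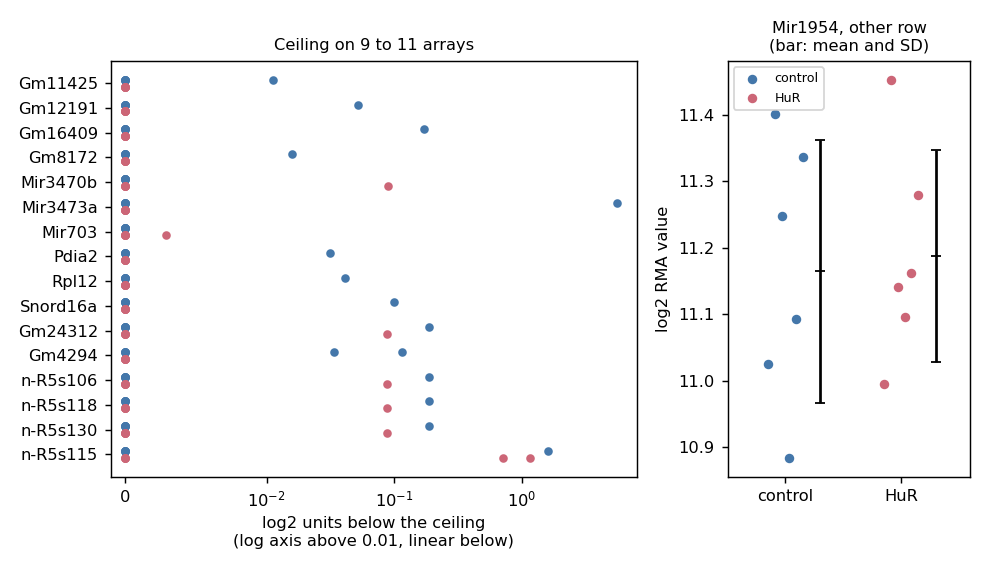
Left, distance below the ceiling in log2 units (horizontal axis, logarithmic above 0.01 and linear below) on each of 12 arrays for the 16 genes at the ceiling on 9 to 11 arrays (blue, control, n = 6; red, HuR, n = 6). Right, log2 RMA value of the other Mir1954 row by group, with mean and SD, where control (11.16) and HuR (11.19) overlap.

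Of the 3 genes at the ceiling on 1 array, Ighv1-2, a variable segment of the immunoglobulin heavy chain, varied most. It read from 6.80 to 18.54 in control pancreas and from 12.01 to 19.9315 in HuR pancreas, where replicate 2 reached the ceiling. The groups overlapped, and no difference is given because that array is capped. Rmrp, the RNA of the mitochondrial RNA processing ribonuclease, read 19.7951 on 6 of 12 arrays and 19.9315 in HuR replicate 2. Mir669e, whose row is on chromosome 8 by name and not on chromosome 2 with the gene, ranged from 18.08 to 19.77 in control pancreas and from 18.36 to 19.9315 in HuR pancreas.

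The number of rows at the ceiling on each array was 352, 337, 351, 353, 353 and 354 in control replicates 1 to 6 and 355, 352, 345, 350, 353 and 356 in HuR replicates 1 to 6. The control group averaged 350.0 ± 6.45 (SD, n = 6) and the HuR group 351.8 ± 3.97 (SD, n = 6). The groups overlapped. No test is given, since these counts are made of the values by which the genes were chosen. Control replicate 2 had the fewest, and the difference in means, 1.83 rows, was -0.767 without it. Of 361 rows ever at the ceiling, 321 were so on all 12 arrays, 33 on 9 to 11, 1 on 2 to 8, and the rest on 1.

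The shortfall sat on few arrays. Of the 33 rows at the ceiling on 9 to 11 arrays, 17 were below it in control replicate 2 and 9 in HuR replicate 3, against 0 to 5 on each of the other 10. Of the 16 genes among them, 13 were below in control replicate 2 and 5 in HuR replicate 4. By the same measure 321 of 65956 rows were at the ceiling throughout, and of these 171 carried 1 symbol, 18 several and 132 none.

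**Figure D5:**
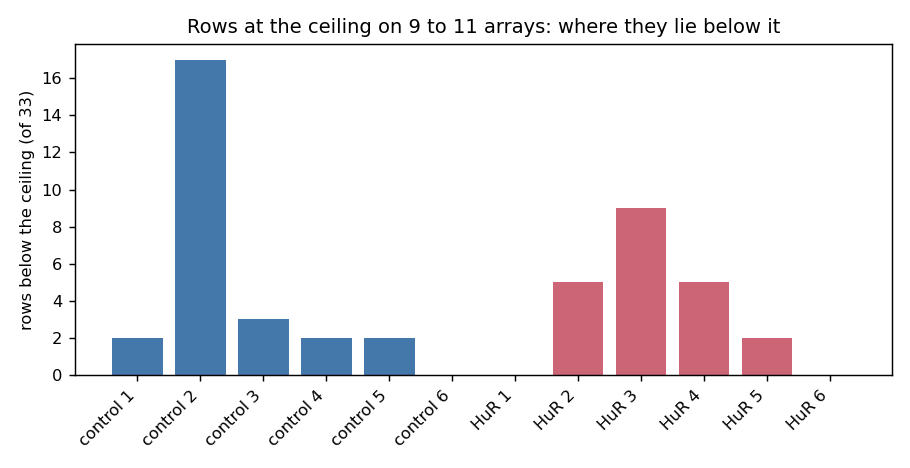
Number of rows below the ceiling (vertical axis) on each array (horizontal axis; blue, control; red, HuR), among the 33 rows at the ceiling on 9 to 11 of the 12 arrays. Control replicate 2 has 17 and HuR replicate 3 has 9, and control replicate 6, HuR replicate 1 and HuR replicate 6 have 0.

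Tissue and group labels were checked on marker genes. Of 6 acinar markers 4 (Cpa1, Cel, Ctrb1 and Cela1) are themselves at the ceiling, and only the transcription factors Ptf1a and Bhlha15 can vary. Ptf1a averaged 8.33 ± 0.44 (SD) in control and 8.26 ± 0.256 (SD) in HuR pancreas, and Bhlha15 averaged 8.35 ± 0.65 (SD) and 7.71 ± 0.258 (SD). The Bhlha15 difference of -0.64 ± 0.264 (SE), with 6 of 6 HuR arrays below the control median and overlap between groups, had an unadjusted limma p of 0.032 and an adjusted p of 0.925. Islet markers averaged 13.33 to 15.12 over all arrays, while liver (5.133 to 6.072) and intestine (4.104 to 4.431) markers stayed low. Adipocyte markers averaged 6.528 to 9.598 in control and 7.518 to 11.55 in HuR pancreas, and macrophage markers 6.699 to 8.096 and 7.148 to 9.566. Their part in the differences given above was not tested. Over all arrays duct markers averaged 6.133 to 6.475, B cell markers 4.568 to 7.166 and the red blood cell marker 5.829 to 7.012. Elavl1, the gene of HuR, measured 5.83 to 6.12 in control and 6.05 to 6.46 in HuR pancreas, higher than the control median on 6 of 6 HuR arrays with overlap, and the difference of 0.24 ± 0.0755 (SE) had an unadjusted limma p of 0.00822 and an adjusted p of 0.925. Whether that row reads the transgene is not given in the sources used here.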

How the data were processed

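Whole pancreas from 6 control and 6 HuR samples was measured on arrays. Per the labels, the values are RMA expression values, made with Expression Console 1.4. Version 3.1 of the Transcriptome Analysis Console also appears in the submitters' processing notes, with no role given. The deposited table holds log2 values that were used as they stand. Array controls (6732 rows) were left out, which leaves 65956 rows. Of these, 30604 had exactly 1 gene symbol after repeated symbols were joined, 2146 several and 33206 none. Symbols were updated by gene identifier through RefSeq, which matched 22815 rows, and classes were then taken by symbol where no identifier matched. A row's chromosome was read from its name. The members, the gene lists, the motifs and the tests were chosen with earlier results of these data known. Named in the text are the members by role, their other rows below the ceiling, genes at the ceiling on some arrays, and the brightest non-members of each list.

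HuR was compared with control by limma 3.58.1 in R 4.3.3 on all 65956 rows, with Benjamini-Hochberg adjustment and a threshold of 0.05. On simulated data with these spreads, limma recovered 86% of rows changed by 1 log2 unit and 44% of those changed by 0.5. Of its 175 calls there, 11 were false. Rows with almost no spread between arrays were not among those changed, so these shares do not apply to every measured row. The measured difference of 4.43 for 1810009J06Rik had an adjusted limma p of 0.925. Recovery in rows that are capped, or that share 1 value on several arrays, was not tested separately. Rows capped at the ceiling were part of the HuR and control fit and of its adjustment, but their values are described without a test result. Values are intensities, so precision is limited by the number of arrays.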

Additional observations from a re-analysis of the deposited data

Results flagged for a closer look

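Control replicate 2 stood apart from the other control arrays with 337 rows at the ceiling, against 351 to 354 on the rest. Genes with 1 or more low arrays in a group stood apart in the same sense, which follows from their choice where all other arrays share 1 value. Chance alone gives such a gap in about 1 in 20 groups of freely varying values. That rate does not hold for capped values. In control replicate 2 the low values were 19.9202 for Gm11425, 19.8792 for Gm12191, 19.7597 for Gm16409, 19.9158 for Gm8172, 19.90 for Pdia2, 19.8903 for Rpl12, 19.8324 for Snord16a and 18.3149 for n-R5s115. Gm24312, n-R5s106, n-R5s118 and n-R5s130 were at 19.7447 in control replicate 2 and at 19.8431 in HuR replicate 4. Elsewhere, Mir3473a was low in control replicate 4 (14.3209), Mir3470b in HuR replicate 3 (19.8412), Mir703 in HuR replicate 2 (19.9286) and Gm4294 in control replicate 1 (19.8165). Rmrp was high in control replicate 6 (19.8446) and low in HuR replicate 6 (19.4548), and the other Gm11703 row was high in HuR replicate 4 (15.0299).

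Among rows outside the comparison, 6 of 5222 array controls named as negative (0.115%) were at the ceiling on all 12 arrays, against 0.487% of the rows that are not controls. None of the 155 spike-in control rows and none of the 23 background control rows was.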

How the results depend on the processing

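The count of 122 genes was 120 to 143 under the alternatives tried: 124 within 0.01 of the maximum, 120 with the lowest row or the mean of a gene's rows, and 138 with rows of several symbols. It was 143 for genes with 1 value on all 12 arrays at any level, an alternative chosen after seeing the data. The 0 calls among the 2 other rows were 0 under all fits run, including the replicate block, where the lower adjusted limma p was 0.958. Correlations of same-numbered arrays ran from 0.0176 to 0.618, with 3 of 6 arrays most like their own number, so the numbers were not taken to pair samples. The difference in rows at the ceiling per array ran from -0.8 to 3.2 over fits without 1 or more arrays and was 1.833 with all, by replicate pairs too. Differences of single rows that changed sign were as follows. A new quantile normalization gave -0.03797 for the other Gm11703 row and -0.04317 for the other Mir1954 row, and centring arrays on the median row gave 0.01307 for Mir703. Over fits without 1 or more arrays the difference ran from -0.03307 to 0.07033 for the other Mir1954 row, and from -0.01768 to 0.03113 for each of Gm24312, n-R5s106, n-R5s118 and n-R5s130. It ran from -0.3133 to 0.1259 for n-R5s115 and from -0.08282 to 0.01449 for Rmrp. Apart from the other rows of Gm11703 and Mir1954, these rows are capped at the ceiling on some arrays. The other Gm11703 row shares 1 value on 9 of 12 arrays. Differences of capped or shared rows depend on which arrays left that value, and they measure neither a change nor its absence. The causes were not tested.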

Other observations

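Values shared by several arrays were common near the top of the scale and not limited to the ceiling. Of the 30003 genes not at the ceiling throughout, 342 (1.14%) had the same value on at least 6 of 12 arrays. By mean log2 value the share was 0.312% of genes below 10, 14.6% from 14 to 16, 28.2% from 16 to 18 and 84.6% of the 130 genes from 18 to 20. In all 23 genes had the same value on all 12 arrays below the ceiling, among them Nupr1, a stress-response gene of the pancreas (19.9284), and Malat1, a nuclear long non-coding RNA (19.4546). Differences between groups for such rows are 0 or rest on the few arrays that leave the shared value.

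The lower peak between 16.5 and 16.75 held 75 genes, of which 48 shared the most common value, 16.5939. Of the 75 genes, 66 were predicted genes with a Gm name.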
